A study of Mus musculus with 2 samples.

Results

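The gasdermin genes considered here are the 4 genes of the mouse Gsdmc cluster (Gsdmc, Gsdmc2, Gsdmc3 and Gsdmc4) together with Gsdma and Gsdmd. They were found by the gene name printed for each probe in the array files. Of the 6 listed genes, 5 carried a probe, and no probe was named for Gsdmc2. Those 5 genes had 6 probes, against 29875 gene names on the whole array. The set was chosen by a measured value: Gsdmc3 stood among the genes higher in labelled knockout on both arrays of this same comparison. The log2 ratios of the members are therefore given as a description and carry no test of their own.

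The arrays compared dissected mouse ureters at E14.5 from embryos labelled Smad4cKO (UE) with ureters from embryos labelled control, all of the NMRI strain. The series names the knockout genotype Pax2-cre/+;Smad4(fl/fl), which the sample labels spell Pax-cre/+;Smad4(fl/fl), and the control genotype Smad4(fl/?). At least 1 floxed Smad4 allele was thus carried by both groups, the second allele of the controls is not given, and no Cre is listed for them. The Pax2-cre driver is known for activity in the nephric duct and its epithelial derivatives. In which cells of these samples Smad4 was lost was not measured. There were 2 two-colour arrays, each hybridised with 1 knockout and 1 control sample from 150 ng of total RNA. On replicate 1, labelled female, Cy3 carried the knockout and Cy5 the control. On replicate 2, labelled male, the dyes were exchanged. Sex and dye orientation changed together and cannot be told apart. How many embryos were behind each sample is not stated by the labels, so the spread between arrays may be in part technical.

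Gasdermins are pore-forming proteins. In most of them an amino-terminal domain that punches holes in membranes is held inactive by a carboxy-terminal domain, and a protease cut between them releases the pore-forming part, which can end in the lytic cell death called pyroptosis. GSDMD is cut by inflammatory caspases, and in human cells GSDMC can be cut by caspase-8. The mouse Gsdmc genes are known from the gut epithelium, where type 2 cytokines induce them, and they were reported to be raised in mouse colon tumours that lack the TGF-beta receptor gene Tgfbr2. SMAD4 is the shared partner of the SMAD proteins that TGF-beta and BMP receptors activate.

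The probes of the close paralogues are shown first, because what each can tell apart depends on its letters. Each line gives a 30-base stretch of a 60-base probe of the Gsdmc cluster, 5′ to 3′ on the minus strand, as the array files list it on mm9. Capitals in the first 2 lines mark the bases at which the Gsdmc stretch and the Gsdmc3 stretch differ. The last 2 lines have no capitals, since their stretches match no other gasdermin probe closely.
Gsdmc, chr15:63608193-63608222: caagcccagcctcAgTcctggatacatttg
Gsdmc3, probe A_52_P498798, chr15:63689827-63689856: caagcccagcctcCgAcctggatacatttg
Gsdmc3, probe A_55_P2011101, chr15:63689337-63689366: ccttaccacgtctaggaaacaggatgttgt
Gsdmc4, chr15:63723308-63723337: caagagtcgtgaatcgagtgcatgttttag

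The Gsdmc probe and the Gsdmc3 probe A_52_P498798 shared 28 of 30 bases in their best-matching stretch, with 15 identical bases in a row. Cross-hybridisation between these paralogues is possible for that pair of probes and was not tested. The next closest pair of gasdermin probes shared 19 of 30 bases. Outside the gasdermins, the closest of the 39428 other probes shared 21 to 23 of 30 bases with a cluster probe on the same strand and 21 to 22 as the reverse complement, where the median was 14 to 15. Probes were compared with probes only, and transcript sequences were not used here.

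The brightest probe of the cluster, A_55_P2011101, is listed under Gsdmc3 but carries 3 RefSeq transcript accessions in the array files, which the RefSeq table assigns to Gsdmc3 and, for the other two, to Gsdmc2. It is called the shared Gsdmc3/Gsdmc2 probe below, and its signal cannot be assigned to either gene. It lies at mm9 chr15:63689307-63689366, and the second Gsdmc3 probe, A_52_P498798, lies 515 bases further along at chr15:63689822-63689881. The Gsdmc probe lies at chr15:63608169-63608228 and the Gsdmc4 probe at chr15:63723278-63723337, so the cluster's probes span 115 kb. The exon structure on mm9 was not used here.

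Every direction rests on the dyes that the labels assign, hence the terms labelled knockout and labelled control. Read in the order of its titles, the authors' deposited table runs the opposite way on both arrays. If all signs were turned, each rank would count from the bottom of the list, each share given for genes higher in labelled knockout would become that of genes lower in it, and the sizes would stay. Smad4, the targeted gene, had a normalised intensity of 20316 in labelled knockout and 30444 in labelled control on replicate 1, and of 21708 and 22965 on replicate 2. Its log2 ratio of labelled knockout over labelled control was -0.33 ± 0.36 (SD, n = 2 arrays) and did not pass limma's test. These values are from 1 of 2 Smad4 probes, and the other is not given here. Whether the probe used lies in the floxed part was not determined. Smad4 therefore does not check the labels. Xist was bright on the array labelled female (4241 in labelled knockout, 4515 in labelled control) and dim on the array labelled male (319 and 947), while the Y-linked Ddx3y was dim on the first (554 and 268) and bright on the second (5301 and 4588). Between 66.5% and 69.1% of probes were well above background in a channel, and no spot was saturated.

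All 4 probes of the Gsdmc cluster read higher in labelled knockout than in labelled control on both arrays, and Gsdma and Gsdmd did not. The shared Gsdmc3/Gsdmc2 probe was 2.53-fold higher, Gsdmc4 1.48-fold and Gsdmc 1.34-fold, as means over the 2 arrays. Among the 20104 genes tested, 21.7% lay above 0 on both arrays, and 0.264% were at least 1.5-fold higher in labelled knockout on each array. The limma test called 0.328% of genes in either direction at an adjusted p of 0.05 and 0.229% as higher in labelled knockout. Of the 8 gasdermin genes that could be tested, 1 was called, Gsdmc3 through its shared probe. With median centring or with no filter on dim probes none was called, and under 5 other settings Gsdmc4 was called beside it. The comparison that chose the set is the one these counts come from.

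The shared Gsdmc3/Gsdmc2 probe had a normalised intensity of 872.3 in labelled knockout and 377.7 in labelled control on replicate 1. On replicate 2 it read 1035 in labelled knockout, against 373.6 in labelled control. On each array the knockout channel stood above the control channel. Intensities were not scaled between arrays, so the levels of the 2 arrays are not compared here. The lowest knockout spot, 746.0 on replicate 1 and 906.0 on replicate 2, was brighter than the highest control spot, 409.8 and 406.7. Spots are copies within an array. How many of all probes show such a gap was not counted, which also holds for the probes below. The log2 ratio was 1.21 on replicate 1 and 1.47 on replicate 2 (mean 1.34 ± 0.19, SD, n = 2). The 4 spots of the probe gave 1.16 to 1.29 on replicate 1 and 1.40 to 1.56 on replicate 2, which describes the spread within an array. By its mean, Gsdmc3 ranked 6 of 20104 genes, counted from the highest ratio in the direction of the label dyes, or from the lowest with the sign turned.

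The second Gsdmc3 probe had a smaller ratio. It read 282.6 in labelled knockout and 209.1 in labelled control on replicate 1, and 278.5 and 167.5 on replicate 2. Its spots overlapped between genotypes on replicate 1, where the lowest knockout spot was at 245.5 and the highest control spot at 260.2, and did not overlap on replicate 2. Within each spot, where both dyes are read at the same place, knockout was the higher one in all 4 spots of each array. The log2 ratios were 0.43 and 0.73 (mean 0.58 ± 0.21, SD, n = 2). The shared probe exceeded this one by 0.77 on replicate 1 and by 0.74 on replicate 2 in log2 ratio. The gap between the 2 probes of Gsdmc3 was thus nearly the same on both arrays. The shared probe can also take Gsdmc2 transcripts and the second probe resembles Gsdmc, and the part of either in the gap was not tested.

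Gsdmc, the gene that gives the cluster its name, read 324.9 in labelled knockout and 248.5 in labelled control on replicate 1, and 302.1 and 221.4 on replicate 2. Knockout spots lay above all control spots on each array, and the share of all probes with such a gap was not counted. The log2 ratios, 0.39 and 0.45 (mean 0.42 ± 0.04, SD, n = 2), were the closest pair among the cluster's probes, and the spot ranges of the arrays, 0.30 to 0.53 and 0.30 to 0.61, overlapped. Gsdmc ranked 203 on the same count. On its 30-base stretch it differs from the second Gsdmc3 probe at the 2 capital letters shown above, and signal from Gsdmc3 transcripts in the Gsdmc reading was not measured.

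The Gsdmc4 probe lay close to background. It read 194.2 in labelled knockout and 141.5 in labelled control on replicate 1, and 180.0 and 112.1 on replicate 2. All 4 knockout spots and 3 of 4 control spots were well above background on each array. No control spot reached the lowest knockout spot, again without a count of such probes over the whole array. The log2 ratios were 0.46 and 0.68 (mean 0.57 ± 0.16, SD, n = 2), and Gsdmc4 ranked 105 on the same count. This value depended on the background correction: it was 0.87 with an offset of 0 in place of 50 and 1.28 with the scanner's processed signals. The offset is added to both channels and so draws the ratio of a dim probe towards 0. The Gsdmc4 stretch resembled no other gasdermin probe closely.

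**Figure D1:**
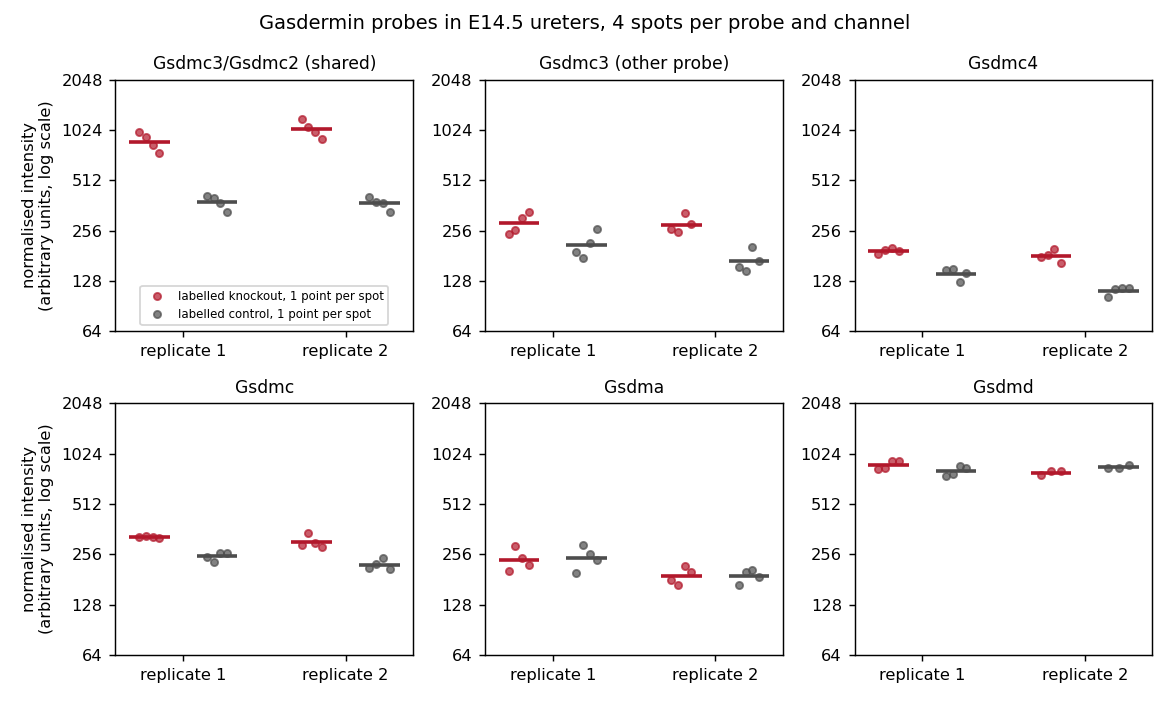
Normalised intensity (arbitrary units, log scale) of the 6 probes of the listed gasdermin genes on each array, with 1 point per spot, labelled knockout in red to the left of labelled control in grey, and a bar at the mean of the spots. The shared Gsdmc3/Gsdmc2 probe sits at 872.3 and 1035 in labelled knockout, against 377.7 and 373.6 in labelled control, while the channels of Gsdma and Gsdmd lie at similar heights.

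All 4 cluster probes lay above 0 on both arrays, as did 21.7% of the 20104 genes tested. Across the cluster, 32 of 32 spots were higher in labelled knockout, but spots are no replicates. The share of all probes with every spot on the same side was not counted. The knockout was in Cy3 on replicate 1 and in Cy5 on replicate 2, so the sign held in both dye orientations. For Gsdmc3 that sign was part of how the set was chosen. All 4 cluster probes had the larger ratio on replicate 2, the array labelled male. With 1 array per sex and per orientation, that difference was not tested.

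Gsdma and Gsdmd showed no shared direction on the 2 arrays. Gsdma, a gasdermin of skin and upper gut, has its probe at chr11:98537914-98537973 on the plus strand. It read 235.8 in labelled knockout and 243.2 in labelled control on replicate 1, and 190.8 and 190.2 on replicate 2. Its log2 ratios were -0.04 and 0.00462 (mean -0.02 ± 0.03, SD, n = 2), and the spots of the 2 genotypes overlapped on each array. Gsdmd, the executioner of inflammasome-driven pyroptosis, has its probe at chr15:75697536-75697595 on the plus strand, on the chromosome of the Gsdmc cluster but outside it. Its mean log2 ratio was 0.00126 ± 0.16 (SD, n = 2). Its channels read 875.8 in labelled knockout and 809.1 in labelled control on replicate 1, and 789.6 and 853.3 on replicate 2. The channel in Cy3 was the brighter one on both arrays, with ratios of 0.11 and -0.11.

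**Figure D2:**
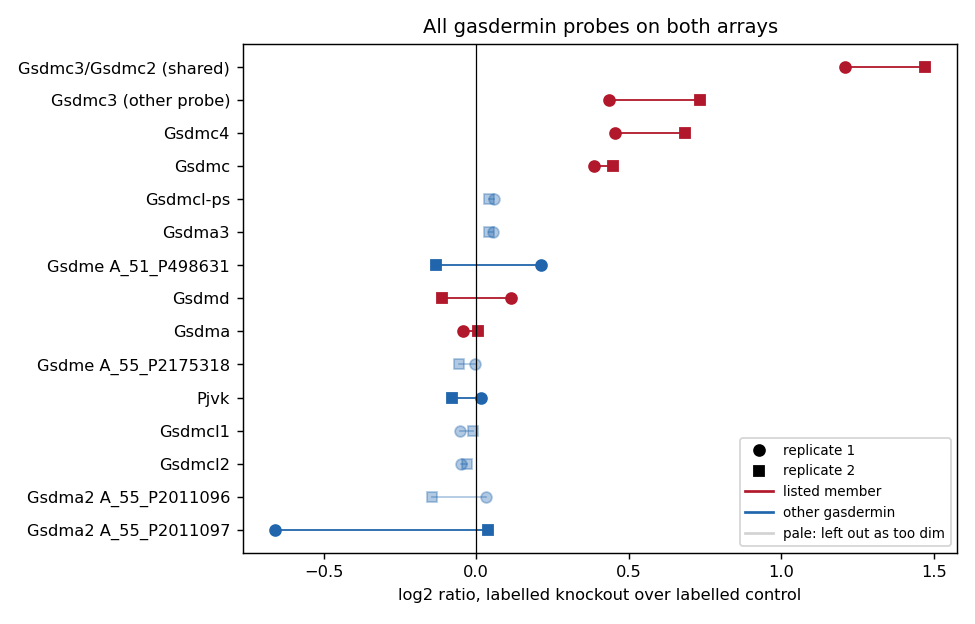
Log2 ratio of labelled knockout over labelled control for all 15 gasdermin probes, with a circle for replicate 1, a square for replicate 2 and a line joining them. Members are red, other gasdermins blue, and probes left out as too dim are pale. The 4 probes of the Gsdmc cluster lie to the right of 0 on both arrays, from 0.39 to 1.47.

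The other gasdermins and the pseudogenes of the cluster were measured by 9 more probes, of which 3 were kept. Gsdme, which caspase-3 cuts, read 1612 in labelled knockout and 1391 in labelled control on replicate 1, and 1445 and 1584 on replicate 2. Its log2 ratios of 0.21 and -0.13 had opposite signs, again with Cy3 brighter on both arrays. Pjvk, the gene of the hearing protein pejvakin, read 0.02 and -0.08. Gsdma2 read -0.66 on replicate 1 and 0.04 on replicate 2. The replicate 1 value came from 133.7 in labelled knockout, against 211.0 in labelled control. On replicate 2 no knockout spot and 2 control spots of Gsdma2 were well above background, so its value there is near the floor. The 6 probes left out were those of Gsdma3, a second Gsdme probe, a second Gsdma2 probe and the pseudogenes Gsdmcl1, Gsdmcl2 and Gsdmcl-ps. The 3 pseudogenes lie in or beside the cluster, and 0 of their spots were well above background in any channel. None of the 3 kept non-members passed the test.

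**Figure D3:**
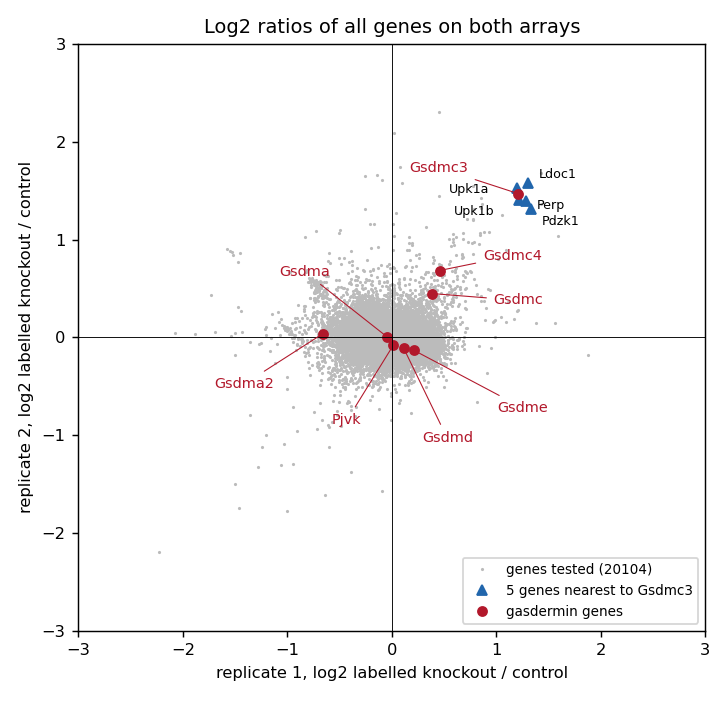
Log2 ratios of labelled knockout over labelled control on replicate 1 (x axis) and replicate 2 (y axis) for the 20104 genes tested in grey, the 8 gasdermin genes in red and the 5 genes nearest to Gsdmc3 as blue triangles. Gsdmc3, drawn by its probe shared with Gsdmc2, lies at 1.21 and 1.47, with Upk1a, Upk1b, Perp, Ldoc1 and Pdzk1 nearest. Gsdmc4 and Gsdmc lie nearer the mass of genes, and the other gasdermins lie inside it or, for Gsdma2, at its left edge.

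The genes whose pair of log2 ratios lay closest to that of the shared Gsdmc3/Gsdmc2 probe were sought over all kept genes with a symbol, by Euclidean distance over 2 arrays. Upk1a, a uroplakin of the urothelial surface, was the nearest, with ratios of 1.20 and 1.53 and a distance of 0.0579. Upk1b, its close relative, followed with 1.21 and 1.40 (0.0710). Perp, a desmosome gene of stratified epithelia, lay at 0.110, Ldoc1 at 0.141 and Pdzk1, a scaffold protein gene, at 0.203. These distances come from 2 values per gene in the same 4 channels and describe these arrays only.

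Some ureter epithelium markers were higher in labelled knockout, as the Gsdmc cluster was, and others were not. All 12 epithelial and all 8 mesenchymal markers of the labelled tissue were above the filter. Of the 12 epithelial markers, 9 lay above 0 on both arrays and 1 below, with a median log2 ratio of 0.29 against -0.00438 over all genes. Those that rose and passed the test were Upk3a (1.55), Upk1a (1.36), Upk1b (1.31) and Grhl3 (1.09), a transcription factor of surface epithelia, with limma adjusted p of 0.000882, 0.00142, 0.00139 and 0.0101. These calls, like that of Gsdmc3, were lost with median centring and with no filter on dim probes, where no gene passed, and that of Grhl3 also with unpaired channels. A further uroplakin gene, Upk2, read 0.45 and 1.45 (mean 0.95 ± 0.70, SD, n = 2, limma adjusted p = 0.136) and did not pass. Shh lay below 0 on both arrays (-0.16 and -0.21). Krt5 (-0.00221 and 0.54) and Trp63 (-0.29 and 0.30) had opposite signs. The summed intensity of the list was 187349 in labelled knockout and 163985 in labelled control on replicate 1, and 162677 and 143694 on replicate 2. Cdh1 (0.31) and Krt18 (0.06), which mark epithelium in general, did not pass. In these bulk samples more cells of a type and more RNA per cell cannot be told apart, and the part of the epithelial markers in the gasdermin values was not tested.

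Markers of gut and of keratinised skin did not pass the test. Of 9 gut epithelium markers, Cdx1, Cdx2 and Muc2 were not above the filter, and the 6 kept had a median of -0.01, with Vil1 at 0.20, Fabp2 at 0.07, Gpa33 at -0.07 and Cdh17 at -0.22. Their summed intensity was 2479 in labelled knockout and 2471 in labelled control on replicate 1, and 2191 and 2289 on replicate 2. Of 7 markers of keratinised skin, 6 were kept, with a median of 0.03. The one apart from the rest was Ivl, the cornified envelope protein involucrin, at 0.45 and 0.54 (mean 0.49 ± 0.06, SD, n = 2, limma adjusted p = 0.256), while Lor (-0.11), Krt14 (0.07) and Krt10 (0.06) lay close to 0. The skin list summed to 9650 in labelled knockout and 10566 in labelled control on replicate 1, and to 9362 and 8359 on replicate 2.

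Mesenchymal and blood cell markers were followed too. The 8 mesenchymal markers had a median of 0.02 and none passed, with Foxf1 (-0.70), Ptch1 (-0.41), Bmp4 (-0.29) and Acta2 (0.24) the farthest from 0. Their summed intensity was 76696 in labelled knockout and 91361 in labelled control on replicate 1, and 71781 and 74770 on replicate 2. The 8 macrophage markers had a median of 0.15 and none passed, with Lyz2 (0.39), Adgre1 (0.26), Cd14 (0.25) and Mrc1 (0.21) the farthest from 0, and their sum was 19111 in labelled knockout and 19191 in labelled control on replicate 1, and 20501 and 19115 on replicate 2. Neutrophil markers differed between arrays: the 5 kept of 6 had a median of 0.62 on replicate 1 and -0.09 on replicate 2, with none passing. S100a9 alone read 1.87 and -0.18, while S100a8 read 1.19 and 0.27, and the means of Camp and Ly6g were 0.27 and 0.19. The neutrophil sum was 2417 in labelled knockout and 1116 in labelled control on replicate 1, and 1231 and 1265 on replicate 2, and its part in the gasdermin values was not tested.

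The genes that work with gasdermins were described by lists. Of 14 inflammasome sensors and adaptors, which sense danger and activate the caspases, 8 were kept and none passed. They had a median of -0.07, with 1 above 0 on both arrays and 6 below. Pycard, the adaptor that joins sensors to caspase-1, was the one above: it read 6555 in labelled knockout and 4031 in labelled control on replicate 1, and 5766 and 4679 on replicate 2. Its log2 ratios were 0.70 and 0.30 (mean 0.50 ± 0.28, SD, n = 2, limma adjusted p = 0.350). Naip5 (-0.17), Nlrp1a (-0.09) and Naip2 (-0.09) were the next farthest from 0. Nlrp6, Nlrp9b, Nlrp12, Nlrc4, Mefv and Naip1 were not above the filter.

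Of 11 protease genes listed for gasdermin cleavage, 9 were kept and none passed, with a median of -0.02. Whether each of them cuts a gasdermin was not checked. Casp8, which cuts human GSDMC, read 0.39 and 0.11 (mean 0.25), and Casp6 read 0.39 and 0.04 (mean 0.22). Ctsg averaged -0.12, and the granzyme genes Gzma and Gzmb were not above the filter. Of 12 genes for released cytokines and for membrane rupture, repair or palmitoylation, 10 were kept and none passed, with a median of 0.02. Il18, a cytokine that leaves cells through gasdermin pores, read 0.44 and -0.01 (mean 0.21). Ninj1, whose protein ruptures the membrane of dying cells, averaged 0.15, Chmp3 of the membrane repair machinery 0.19 and the palmitoyltransferase gene Zdhhc9 -0.25. Il1a and Il1b were not above the filter.

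The 10 genes of the type 2 cytokine and TGF-beta receptor list were all kept, and none passed. Their median was -0.01. The receptor gene Tgfbr2 read -0.11 and -0.32 (mean -0.22) and the signal transducer gene Smad3 -0.29 and -0.07 (mean -0.18), both below 0 on each array, and the receptor gene Il13ra1 averaged 0.05. Lmo1, a LIM-domain gene reported to link TGF-beta to gasdermin A in human stomach, had the largest value. It read 2205 in labelled knockout and 1767 in labelled control on replicate 1, and 2098 and 1444 on replicate 2. Its log2 ratios were 0.32 and 0.54 (mean 0.43 ± 0.16, SD, n = 2, limma adjusted p = 0.443).

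Few neighbours of the Gsdmc cluster were measured, and those kept had lower mean ratios than the cluster's probes. Within 250 kb of its probes there were 10 other genes with a probe, of which 4 were kept and 0 passed, with mean log2 ratios from -0.22 to 0.15. The nearest kept gene with a symbol was Cyrib, 37648 bases beyond the Gsdmc4 end, at 0.10 (0.13 on replicate 1 and 0.07 on replicate 2). Asap1 on the same side was at -0.22 (-0.36 and -0.07). On the Gsdmc end no gene with a symbol was kept in that window. A kept transcript without a symbol there read 0.27 and 0.03, and another on the Gsdmc4 end read 0.03 and -0.11. Whether the region shared a direction with the cluster was not tested. Around Gsdma, 18 of 22 genes were kept and 0 passed, from -0.31 (Gsdma2) to 0.20, and the nearest kept gene on the far side, the proteasome gene Psmd3, was at -0.15. Around Gsdmd, all 24 genes were kept and 0 passed, from -0.22 to 0.29, with the nearest named kept genes Zc3h3 at -0.18 and Naprt at 0.00256.

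A promoter sequence was given for 1 of the 6 members, Gsdmc3, and is shown because SMAD4 acts through DNA that the SMAD proteins bind. The 250 bases before its start, chr15:63878559-63878808 on the minus strand of GRCm38.p6, are from RefSeq. Capitals mark CAGAC, the reverse of the SMAD box GTCTG, and TATATAA, a variant of the TATA box.
Gsdmc3 promoter: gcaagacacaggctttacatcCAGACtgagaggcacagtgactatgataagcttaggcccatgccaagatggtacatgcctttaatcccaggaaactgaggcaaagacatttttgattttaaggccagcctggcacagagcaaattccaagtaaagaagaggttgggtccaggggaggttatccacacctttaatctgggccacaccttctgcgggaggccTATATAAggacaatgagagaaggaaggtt
Each promoter was searched on both strands for the SMAD box, for the TATA box spelled TATAAA and for its variant, and the motifs found here do not overlap. The Gsdmc3 stretch held the SMAD box 1 time, at position -229 on the other strand, and 42.2% of 32851 promoters of the same length held it. It held the TATA variant at -29, which 3.04% of promoters held, and no TATA box, which 12.4% held. A match is a match of letters and no measurement of binding.

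**Figure D4:**
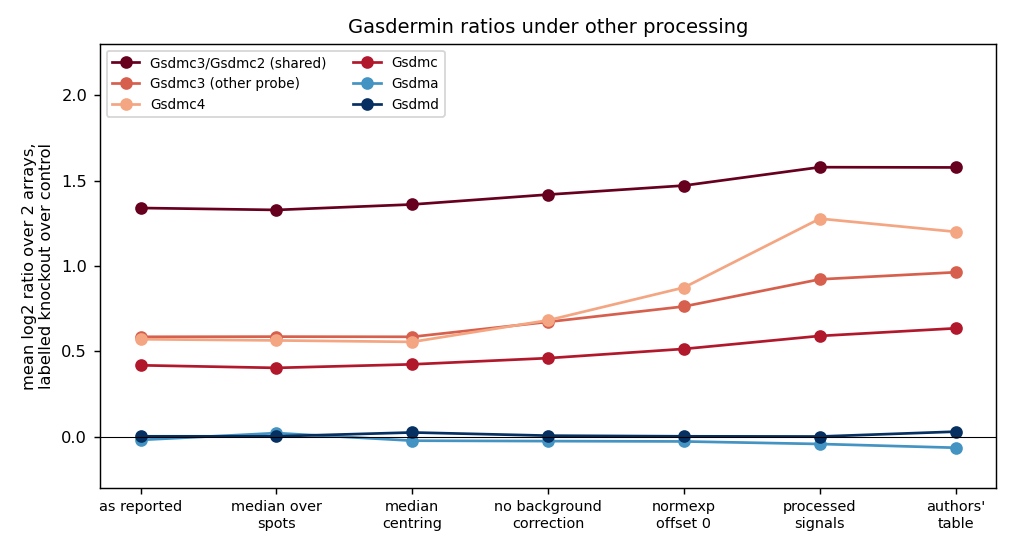
Mean log2 ratio over 2 arrays of labelled knockout over labelled control for the 6 member probes under 7 ways of processing, from the values reported here at the left to the authors' deposited table, turned to the same direction, at the right. The 4 Gsdmc-cluster probes stay above 0 throughout, Gsdmc4 moves the most, from 0.57 to 1.28, and Gsdma and Gsdmd stay near 0.

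The order of the cluster's probes by ratio changed with processing below the shared probe. Gsdmc4 and the second Gsdmc3 probe read 0.57 and 0.58 as reported, and 1.28 and 0.92 with the scanner's processed signals, while the shared probe read 1.58 with them and Gsdmc 0.59. In the authors' deposited table, turned to labelled knockout over labelled control, the shared probe read 1.58, Gsdmc4 1.20, the second Gsdmc3 probe 0.96 and Gsdmc 0.63. The settings under which Gsdmc4 passed beside Gsdmc3 were those with processed signals, without background correction, with an offset of 0, with the authors' values and with a prior with trend.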

How the data were processed

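Both arrays lay on 1 slide. Per the file headers, and per the submitters' processing notes, the authors read spot intensity with Agilent Feature Extraction 10.7.3.1, giving a mean signal and a median background per dye. The deposited files also hold processed intensity and a log10 ratio (red over green). The authors' deposited value table is a score that looks like a signed fold: 11261 probes on replicate 1 and 11489 on replicate 2 stood at exactly 1, its median on each array. Its scaling, centring and floor are unknown here. Its log2 followed red over green on replicate 1 (r = 0.822) and ran against it on replicate 2 (r = -0.739). By the label dyes that means control over knockout, so it was turned before use as an alternative.

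Starting from the mean signals, normexp (offset 50) and loess with zero weight for control spots were applied, outlier-marked spots (3.52% and 3.66%) were dropped, and the 4 spots of each probe were averaged on the log2 scale. Spots are no replicates. Ratios were turned to labelled knockout over labelled control. The filter asked for 2 or more spots well above background on each array in all channels of 1 genotype or the other, and 26522 of 39429 probes passed it. Each gene was represented by its brightest probe. RefSeq (GRCm38.p6, used for names) updated 28322 probe names through accessions, 3405 through symbols and 243 through older symbols, leaving 7459 as the file has them. Coordinates are on mm9, from the array design.

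limma 3.58.1 (R 4.3.3) tested both log2 ratios against 0 (two-sided), and p-values were adjusted by Benjamini-Hochberg across 20104 genes. Genes at least 1.5-fold apart one way on each array were counted without a test. The limma step was run on simulated log2 ratios with planted folds and noise drawn from its own fitted prior. That run does not cover background correction, loess, filtering or the averaging of spots. The members and the 13 gene lists were chosen with earlier results of these data known. Named are all gasdermin probes, per list the genes that passed and up to 4 with the largest absolute mean, the 5 genes nearest to the brightest cluster probe, and the nearest kept genes within 250 kb, without predicted or clone names. One gene that this rule would name is not reported here. Cdh1, Krt18, Krt5, Shh, Upk2, Trp63, Asap1 and the unmeasured genes of the lists were named after their values were seen. Alternatives were a zero offset, processed signals, uncorrected background, median centring, 2 other filters, the mean over probes, the median over spots, a prior with trend, unpaired channels, the authors' values and each array alone. Plots came from matplotlib 3.10.9. Having 2 arrays limits the precision of every value.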

Additional observations from a re-analysis of the deposited data

Results flagged for a closer look

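Each of 5 kept gasdermin probes outside the Gsdmc cluster had opposite signs on the array labelled male and the array labelled female. With 1 array per sex these differences were not tested, and dye orientation changed with sex. The share of all genes with opposite signs was not counted, so these signs have no background to be read against. Of the 20104 genes tested, 21.7% lay above 0 on both arrays, and the share below 0 on both was not counted. Pjvk and Gsdma lay close to 0 on each array, where a sign carries little. The male minus female difference in log2 ratio was 0.70 for Gsdma2, from 0.04 on the male array and -0.66 on the female one. No knockout spot and 2 control spots of Gsdma2 were well above background on the male array, so its value there is near the floor. The difference was -0.35 for Gsdme (-0.13 and 0.21), -0.23 for Gsdmd (-0.11 and 0.11), -0.0933 for Pjvk (-0.08 and 0.02) and 0.0490 for Gsdma (0.00462 and -0.04).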

How the results depend on the processing

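The direction of the 4 Gsdmc-cluster probes was the same under every alternative run for them, and Gsdma changed sign with the median over spots. These alternatives use the same 2 arrays, and for Gsdmc3 the sign on both was part of how the set was chosen. The shared direction is thus no independent check. Of all genes, 66 passed as reported, against 194 with processed signals (131 higher in labelled knockout), 191 with the authors' values, 156 with a prior with trend, 131 with an offset of 0, 115 without background correction, 26 with the 4 channels as unpaired samples, and 0 both with median centring and with no filter on dim probes. In limma, 347 and 1097 genes had an unadjusted p under 0.05 under the last 2. The mean over probes and the stricter filter gave 89 each. The count by size was 74 as reported, 154 with processed signals and 145 with the authors' values. Leaving out 1 array gave 233 to 530, where the rule asks for 1.5-fold on 1 array only and so cannot give fewer. The split turned over there: 185 of 233 genes were higher and 48 lower in labelled knockout without replicate 1, against 126 higher and 404 lower of 530 without replicate 2. The mean log2 ratio of Gsdmc was 0.42 as reported, 0.59 with processed signals, 0.51 with an offset of 0 and 0.63 in the authors' table. The shared Gsdmc3/Gsdmc2 probe went to 1.58 with processed signals and 1.58 in the authors' table, the second Gsdmc3 probe to 0.92 and 0.96, and Gsdmc4 to 1.28 and 1.20, and to 0.87 with an offset of 0. With 1 array left out the ranges were 0.39 to 0.45 for Gsdmc, 1.21 to 1.47 for the shared probe, 0.43 to 0.73 for the second Gsdmc3 probe and 0.46 to 0.68 for Gsdmc4. These are the per-array values given above. The fit with 2 channels per array as a pair is the one reported, and the unpaired fit above is the one with no replicate block. Of list medians, 92 moved by less than the spread between arrays and 18 by more. The 30-base comparison covers probes, not transcripts. Gsdmc4 and Gsdma2 lie close to background, where ratios are less certain.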
